A study of Macaca radiata with 4 samples.

Results

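The genes described are those of the interleukins, the chemokines, the interleukin-6 family cytokines LIF and OSM, the colony-stimulating factors CSF1 to CSF3, and the receptors of these ligands. They were taken from the probe annotation by gene symbol, using probe sets that carry a single symbol, and each gene was represented by its brightest probe set. The rule gave 126 of the 14132 genes on the array: 73 ligands, 50 receptors, the 2 receptor antagonists IL1RN and IL36RN, and the enzyme IL4I1. They had 199 of the 52766 probe sets that are not array controls. A further 2 probe sets that match these genes but carry several symbols were left out.

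Luteal RNA of bonnet monkeys (Macaca radiata, all female) was measured on 4 Affymetrix arrays designed for the rhesus macaque. Both groups of animals had received CET, given at 150 µg/kg to stop the secretion of LH by the animals themselves, when the luteal phase had reached day 7. The rhLH group (2 arrays, replicates 3 and 4) was injected intravenously 24 h later with recombinant human LH at 20 IU/kg, and the PBS group (2 arrays, replicates 1 and 2) with 0.5 ml of the buffer alone. Corpora lutea were collected 8 h after the injection, so the comparison is of LH replacement against continued LH withdrawal, and no array of an animal without CET is compared here.

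Interleukins and chemokines are secreted proteins through which leukocytes, vessel cells and steroid-making cells signal to each other. Most interleukin receptors act through JAK and STAT proteins, receptors of the interleukin-1 and interleukin-18 kind act through MYD88 and the IRAK kinases, and chemokine receptors are coupled to G proteins and steer cell movement. In the primate corpus luteum leukocytes are present throughout the luteal phase and their number and activity change as the gland regresses. The expression measured here is that of whole tissue, so fewer cells of a type and less RNA per cell cannot be told apart.

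The 4 arrays were not equally alike. Pearson's r over kept probe sets was 0.940 to 0.947 among rhLH replicates 3 and 4 and PBS replicate 2, and 0.752 to 0.780 between PBS replicate 1 and these. The 3′ to 5′ signal ratio of the actin control was 1.59 and 1.54 on the rhLH arrays, against 11.2 and 1.49 on PBS replicates 1 and 2, and that of GAPDH was 2.28 and 1.62 on the rhLH arrays, against 3.23 and 1.88 on the PBS arrays. A high ratio means that the 5′ end of the transcript was poorly represented. The part that this played in the results was not tested, and differences are given against each PBS array for the genes the results turn on. All 10 measured granulosa-lutein markers of 12 listed were above the filter for dim probe sets. Their summed signal was 153471 and 165438 with rhLH, against 70492 and 151013 with PBS. Both rhLH arrays were higher than both PBS arrays in 6 of the 10 (60%, against 15.1% of all genes) and lower in 0 (against 17.5%). The median log2 difference, rhLH minus PBS, of these 10 markers was 0.87, or 1.73 and 0.28 against PBS replicates 1 and 2.

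No gene of the set passed the test. With limma on log2(signal + 16), 0 of the 86 members bright enough to be tested had a Benjamini-Hochberg adjusted p under 0.05, as did 0 of all 31659 probe sets tested (0%), and the members' adjusted p ran from 0.919 to 0.990. At an unadjusted p under 0.05 there were 4 members, which is 4.65% of the 86, against 641 of all probe sets tested (2.02%). They were IL18, CCL26, IL17C and IL17REL. "Higher" and "lower" below therefore describe measured values.

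Both rhLH arrays were lower than both PBS arrays in 24 members (19.0%), against 17.5% of all genes. Both were higher in 16 members (12.7%), against 15.1% of all genes. In the other 86 members the groups overlapped. These shares are near those of all genes, and no exact two-sided permutation p for a single gene can go below 0.333 with 2 arrays against 2. Requiring a gap of at least 2-fold between every rhLH and every PBS array left IL18 and IL20RB lower, against 0.835% of all genes, and CCL26 higher, against 0.488% of all genes.

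The ligands had a median log2 difference, rhLH minus PBS, of −0.16, the receptors of −0.02 and all genes of −0.02. Set against single PBS arrays, the ligands' median was −0.34 for replicate 1 and −0.01 for replicate 2. Among the ligands, the 21 CC chemokines had a median of 0.43, with 13 above 0, and the 11 CXC, CX3C and XC chemokines had one of −0.35, with 10 below 0. The 38 interleukin and interleukin-6 family ligands had a median of −0.23, with 10 lower and 5 higher without overlap (26.3% and 13.2%). The 35 receptors of these cytokines had a median of 0.15, with 6 lower and 6 higher without overlap (17.1% each). Of all genes, 17.5% were lower and 15.1% higher without overlap, and 7303 of 14132 had a difference below 0. Against PBS replicates 1 and 2 the medians were −0.54 and −0.07 for these 38 ligands and 0.25 and −0.07 for these 35 receptors. The medians of the CC chemokines were 0.07 and 0.33 against PBS replicates 1 and 2, and those of the CXC, CX3C and XC chemokines were −0.75 and −0.14.

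**Figure D1:**
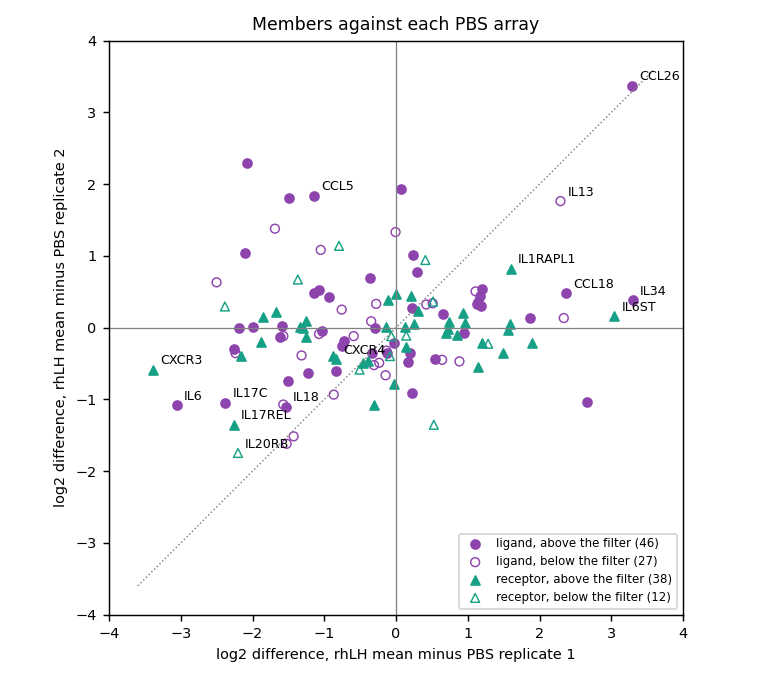
Each point is 1 member gene, placed by its log2 difference of the rhLH mean from PBS replicate 1 on the horizontal axis and from PBS replicate 2 on the vertical axis, with ligands and receptors marked apart and open points for genes below the filter. In 51 of 126 members the sign differs between the 2 PBS arrays.

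The PBS arrays differed from each other by more than the group means did. A mean of 2 arrays varies less than a single array, so these values are not on a like scale. The median absolute log2 difference over members was 0.53 between rhLH and PBS, 0.54 between the 2 rhLH arrays and 0.84 between the 2 PBS arrays. Over all genes these were 0.38, 0.29 and 0.70. The sign of the rhLH difference depended on which PBS array it was taken against in 51 members (40.5%), and in 46.9% of all genes. PBS replicate 1 held the highest signal of the 4 arrays in 50 members and the lowest in 40. In 22 members (17.5%) it was at least 2-fold above every other array, which was so for 10.2% of all genes, while this held for 0 members on PBS replicate 2.

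In a panel of 21 genes, 20 of them measured, IL18, IL6, IL1A, IL1B, CXCL8, CSF2, LIFR and CXCR4 were lower with rhLH without overlap. The other measured panel genes overlapped between groups. They were IL10, LIF, CCL2, CCL5, CXCL12, CX3CL1, CSF1, IL6R, IL6ST, CCR2, CX3CR1 and CSF1R. Of all genes, 17.5% were lower without overlap. IL18, a cytokine of the interleukin-1 family that is released after cleavage by caspase-1 and drives interferon-gamma production, read 151 and 165 with rhLH, against 489 and 357 with PBS. The 2 groups lay more than 2-fold apart, and the difference was of similar size against each PBS array, at −1.54 and −1.10 on the log2 scale. The mean difference was −1.32 (SE 0.46, limma adjusted p = 0.919). IL18 had the smallest unadjusted p of the set.

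IL6, the cytokine that signals through IL6R and the shared subunit IL6ST, read 26.1 and 84.0 with rhLH, against 524 and 121 with PBS. Both rhLH signals were below 90.7, the signal at which a mean level passes the filter. The log2 difference was −2.07 (SE 0.88), and it was −3.06 and −1.08 when taken from PBS replicates 1 and 2. The dimmer probe set of IL6 gave 9.48 and 69.5 with rhLH, against 74.6 and 33.5 with PBS, so there the groups overlapped.

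IL1B, a cytokine of activated macrophages, read 223 and 242 with rhLH, against 394 and 267 with PBS, and IL1A, its relative, had 80.9 and 86.3 with rhLH, against 92.5 and 112 with PBS. CXCL8, the neutrophil-attracting chemokine also called interleukin-8, had 159 and 138 with rhLH, against 192 and 195 with PBS. All 3 were lower without overlap, but by small steps: the log2 differences were −0.46, −0.24 and −0.35, with limma SEs of 0.46, 0.60 and 0.50. Of the 3, only IL1B had further probe sets, and both of these were dim.

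IL17C, an interleukin-17 family member made mostly by epithelial cells, had 107 and 81.4 with rhLH, against 554 and 210 with PBS, a log2 difference of −1.71 (SE 0.63) and −2.38 and −1.05 against the 2 PBS arrays. IL17REL, a gene related in sequence to the interleukin-17 receptors, had 31.1 and 80.5 with rhLH, against 308 and 156 with PBS, a difference of −1.81 (SE 0.69). In both genes the groups were apart and PBS replicate 1 was the highest array. Other interleukin-17 genes, named here after their values were seen, went both ways: IL17A had 103 and 41.4 with rhLH, against 177 and 112 with PBS, while IL17B had 256 and 223 with rhLH, against 99.7 and 184 with PBS. The receptor subunit IL17RC had 446 and 480 with rhLH, against 371 and 393 with PBS.

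**Figure D2:**
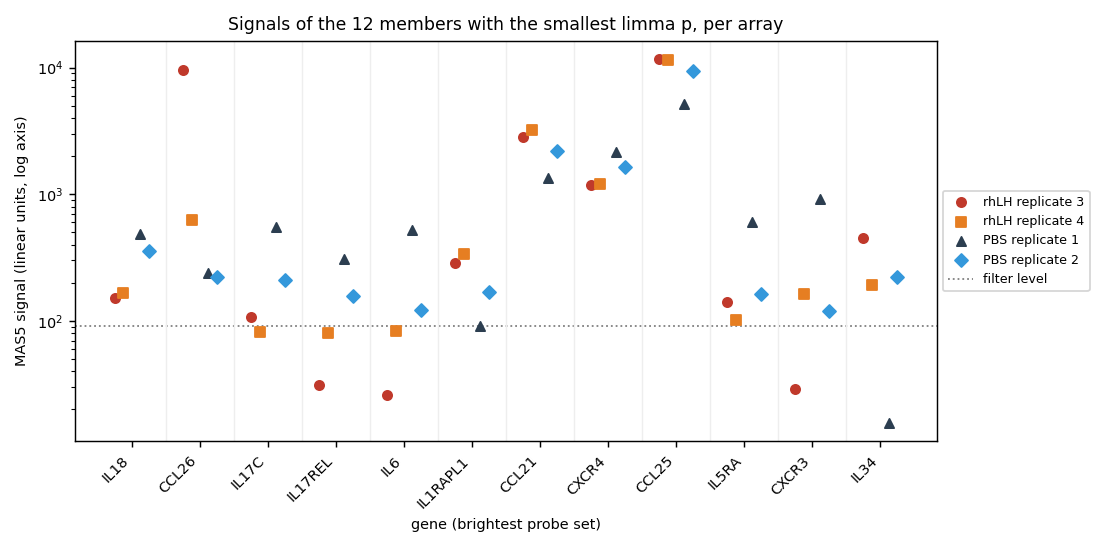
Signals on each array, on a log axis, of the 12 members with the smallest limma p, with the rhLH arrays drawn left of the PBS arrays and the dotted line at the filter signal of 90.7. CCL26 is the member in which a single rhLH array, replicate 3, lies far above the other 3 arrays.

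Of the 21 CC chemokine ligands, 5 were higher and 3 lower without overlap (23.8% and 14.3%, against 15.1% and 17.5% of all genes). Relative to the PBS mean their median log2 difference was 0.45 on rhLH replicate 3 and −0.0078 on rhLH replicate 4. CCL26, or eotaxin-3, a ligand of CCR3 that attracts eosinophils, read 9526 and 623 with rhLH, against 237 and 222 with PBS. The PBS arrays were close together, both rhLH arrays were more than 2-fold above them, and the rhLH arrays themselves were far apart. The log2 difference was 3.33 (SE 1.19, limma adjusted p = 0.919), and it was 1.38 without rhLH replicate 3 and 5.28 without rhLH replicate 4. It was of the same size against each PBS array, at 3.28 and 3.37. Its receptor CCR3, named after its values were seen, had 252 and 131 with rhLH, against 459 and 201 with PBS.

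CCL21, which draws CCR7-bearing lymphocytes and dendritic cells towards lymphatic vessels, had 2813 and 3233 with rhLH, against 1335 and 2209 with PBS. The groups did not overlap, and the log2 difference was 0.81 (SE 0.37), or 1.17 and 0.45 against PBS replicates 1 and 2. A dimmer CCL21 probe set went the other way, at −0.63. CCR7, named after its values were seen, had 335 and 467 with rhLH, against 1299 and 337 with PBS, and was high on PBS replicate 1 alone.

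CCL25, best known as the thymic and intestinal ligand of CCR9, had 11704 and 11539.5 with rhLH, against 5125 and 9389 with PBS. The log2 difference was 0.74 (SE 0.41), or 1.18 and 0.31 against the 2 PBS arrays. It had 4 probe sets, and all 4 were higher with rhLH on average. The second gave 8783 and 7975 with rhLH, against 5117 and 5306 with PBS, and the third gave 4460 and 5006 with rhLH, against 2177 and 3160 with PBS. In these 3 brightest probe sets the groups did not overlap, and in the second the PBS arrays were close to each other.

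CCL18, a chemokine of macrophages and dendritic cells, had 10315 and 614 with rhLH, against 479 and 1813 with PBS, and here the groups overlapped. The log2 difference was 1.42 (SE 1.33). Without rhLH replicate 3 it was −0.59, and a dimmer CCL18 probe set gave −0.39. The signal that set the mean was thus that of a single array.

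Replicate 3 of the rhLH group was high in several of these genes at once. Of all 14132 genes, CCL26 had the largest excess on that array over the highest of the other 3, at 3.90 on the log2 scale, CCL18 had the eighth largest, at 2.50, and IL13 also stood out, at 2.06. IL13, a type 2 cytokine that induces CCL26 in several human cell types, is named here after its values were seen. It was below the filter on average and read 265 and 51.5 with rhLH, against 12.1 and 24.5 with PBS. These 3 members (2.38%) were at least 2-fold above every other array on rhLH replicate 3, against 0.948% of all genes, and 0 members were so on rhLH replicate 4.

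The genes ranked just after CCL26 on that array, named after their values were seen, were interferon-stimulated genes. ISG15, a ubiquitin-like protein, had 14059 and 653 with rhLH, against 150 and 1447 with PBS, and IFIT1, which binds foreign RNA, had 11594 and 855 with rhLH, against 651 and 1057 with PBS. MX1 and IFI44 had 10389.5 and 10765 on rhLH replicate 3 and 575 and 668 on rhLH replicate 4. Summed over 4 measured pan-leukocyte markers of 6 listed, the signal was 6066 and 2737 with rhLH, against 3130 and 3115 with PBS. This sum was highest on rhLH replicate 3, and so was that of the B and plasma cell markers, at 758, against 747 on PBS replicate 2. The sums of the macrophage and of the T and NK cell markers, given below, were highest on PBS replicate 2. That of the neutrophil markers was highest on PBS replicate 1, at 924, against 848 on rhLH replicate 3. What part the leukocyte content or the interferon-stimulated genes of that tissue had in the chemokine values was not tested.

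**Figure D3:**
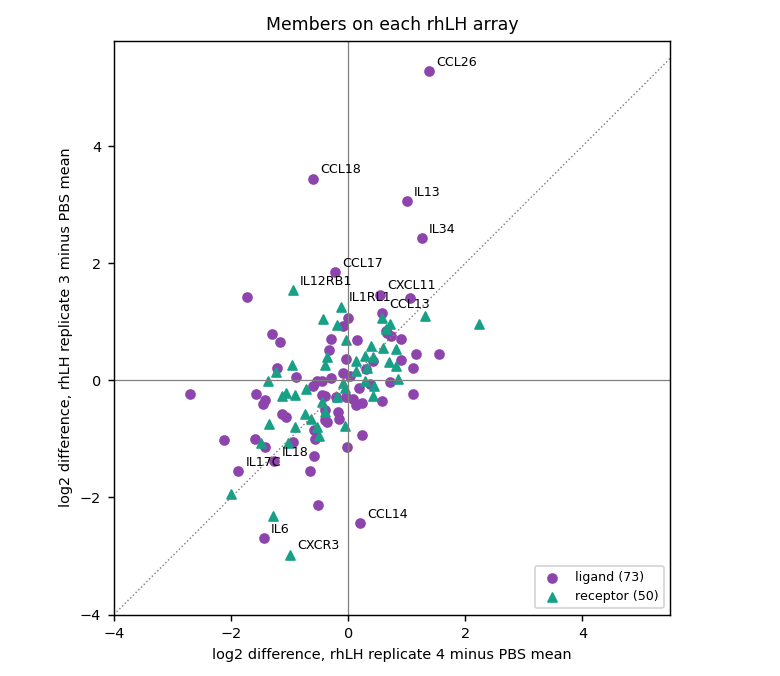
Each point is 1 member gene, placed by its log2 difference from the PBS mean on rhLH replicate 4 (horizontal axis) and on rhLH replicate 3 (vertical axis), with ligands and receptors marked apart. CCL26, CCL18 and IL13 lie high above the diagonal, and in 38 of 126 members the sign differs between the 2 rhLH arrays.

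The other CC chemokines that were examined individually overlapped between groups. CCL2, the main attractant of monocytes through CCR2, had 1531 and 716 with rhLH, against 852 and 607 with PBS, on average 0.53 higher on the log2 scale (SE 0.47), which turned to −0.01 when rhLH replicate 3 was left out. CCL8, a related ligand, had 2351 and 1618 with rhLH, against 1234 and 1700 with PBS, a difference of 0.43 (SE 0.36). CCL5, a T cell and monocyte attractant, had 100.1 and 180 with rhLH, against 318 and 26.1 with PBS, a difference of 0.34 (SE 1.06) whose sign turned with the PBS array used, at −1.15 and 1.84. CCR2 was below the filter, with 90.1 and 47.1 with rhLH, against 58.1 and 72.4 with PBS.

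The other CC ligands without overlap, named after their values were seen, were 2 higher and 3 lower. CCL13, which shares receptors with CCL2 and CCL8, had 314 and 207 with rhLH, against 102 and 170.3 with PBS. CCL1, the ligand of CCR8, had 307 and 275 with rhLH, against 124 and 229 with PBS. On the lower side, CCL28, an epithelial ligand of CCR10 and CCR3, had 77.2 and 60.5 with rhLH, against 389 and 88.2 with PBS. CCL20, the ligand of CCR6, and CCL23, a ligand of CCR1, were below the filter, CCL20 with 20.5 and 96.7 with rhLH, against 175 and 119 with PBS, and CCL23 with 5.98 and 12.4 with rhLH, against 13.4 and 19.1 with PBS. The remaining CC receptors CCR1, CCR4, CCR6 and CCR10 overlapped between groups, and CCR8 was dim on every array, at 10.4 to 19.7.

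Of the 11 CXC, CX3C and XC ligands, 10 had a mean below that of PBS, the exception being CXCL11. Of all 14132 genes, 7303 had a mean below that of PBS. Without overlap 2 of the 11, CXCL8 and XCL1, were lower (18.2%, against 17.5% of all genes) and 0 higher. XCL1, CXCL9 and CXCL13, named after their values were seen, were below the filter. Named after their values were seen, CXCL6 and CXCL13 had dimmer probe sets above 0, at 0.90 and at 0.0085 to 0.54. The dimmer CXCL11 probe set gave −0.16. CXCL12, the ligand of CXCR4 and ACKR3 and a guide for blood-forming and vessel cells, had 391 and 531 with rhLH, against 1408 and 448 with PBS. The log2 difference was −0.79 (SE 0.60), and it came from PBS replicate 1: it was −1.59 against that array and 0.024 against the other PBS array. The other 2 CXCL12 probe sets went the other way, at 1.40 and 1.03, and they were low on PBS replicate 1, at 33.4 and 30.6. Against PBS replicate 2 these 2 probe sets gave −0.28 and −0.0076. The direction of the CXCL12 difference from the PBS mean thus depended on the probe set.

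CXCR4, the receptor through which CXCL12 holds leukocytes in tissue, had 1194 and 1215 with rhLH, against 2175 and 1637 with PBS. The rhLH arrays were close together, both lay below both PBS arrays, and the log2 difference was −0.64 (SE 0.32, limma adjusted p = 0.919), or −0.84 and −0.44 against the 2 PBS arrays. ACKR3, the receptor that takes up CXCL12 without activating G proteins, is no member by its symbol and was named after its values were seen. It stood in the same order, with 1406 and 1486 with rhLH, against 2597 and 1936 with PBS, a difference of −0.63. Of the related receptors, ACKR1, ACKR4 and CCRL2 overlapped between groups.

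CXCR3, the receptor for CXCL9, CXCL10 and CXCL11 on activated T cells and NK cells, had 29.3 and 162 with rhLH, against 922 and 119 with PBS. The groups overlapped, and the log2 difference of −1.99 (SE 1.12) was −3.39 and −0.59 against the 2 PBS arrays. CXCL11 had 2041 and 1067 with rhLH, against 393 and 1339 with PBS, a difference of 1.00 (SE 0.65). Named after their values were seen, CXCL10 had 187 and 78.8 with rhLH, against 409 and 137 with PBS, and CXCL9 was below the filter. All 4 genes overlapped between groups.

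The pair of CX3CL1, a membrane-bound chemokine of endothelium, and CX3CR1, its receptor on monocytes and NK cells, showed no separation. CX3CL1 had 380.2 and 454 with rhLH, against 367 and 587 with PBS, and CX3CR1 had 121 and 151 with rhLH, against 148 and 100.005 with PBS. Their log2 differences were −0.16 (SE 0.43) and 0.13 (SE 0.56).

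**Figure D4:**
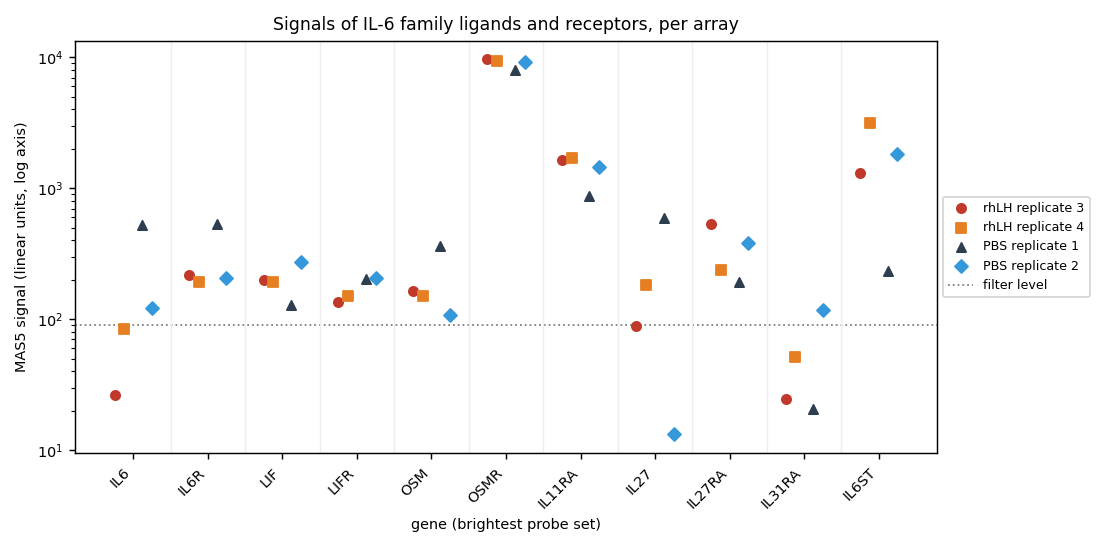
Signals on each array, on a log axis, of the interleukin-6 family ligands and receptors, with the rhLH arrays drawn left of the PBS arrays and the dotted line at the filter signal of 90.7. IL6ST is lowest on PBS replicate 1, while OSMR is nearly level over the 4 arrays.

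In the interleukin-6 family the ligands and the receptors lay on both sides of 0. IL6ST, or gp130, a signalling subunit shared by most of the family, had 1299 and 3138 with rhLH, against 231 and 1811 with PBS. The log2 difference of 1.60 (SE 0.97) was 3.04 and 0.16 against PBS replicates 1 and 2, so it was set by the low value of 1 array. IL6R had 219 and 193 with rhLH, against 530 and 205 with PBS, a difference of −0.65 (SE 0.58) that was −1.30 and 0.00073 against the 2 PBS arrays.

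LIFR, the receptor subunit for LIF, had 135 and 151 with rhLH, against 201 and 207 with PBS, lower without overlap and by −0.47 (SE 0.50). LIF itself had 199 and 193 with rhLH, against 129 and 272 with PBS, between the PBS arrays. OSMR, the oncostatin M receptor, had 9635 and 9405 with rhLH, against 7997 and 9228 with PBS, which is higher without overlap by no more than 0.15 (SE 0.32). IL11RA, the specific receptor of interleukin-11, had 1653 and 1696 with rhLH, against 865 and 1449 with PBS, a difference of 0.57 (SE 0.37), but its dimmer probe set gave −1.05.

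The interleukin-1 receptor family was measured on 4 probe sets each for a decoy and a signalling receptor. IL1R2, the decoy receptor that binds interleukin-1 without signalling, had 2879 and 1115.5 with rhLH, against 2226 and 3813 with PBS, and a log2 difference of −0.69 (SE 0.54). All 4 of its probe sets had negative differences, and in its brightest the groups overlapped. IL1RL1, or ST2, the receptor for IL33 found on type 2 lymphocytes and mast cells, had 9135 and 3494 with rhLH, against 1996 and 7237 with PBS, a difference of 0.57 (SE 0.74) that was 1.49 and −0.36 against the PBS arrays.

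Of the other 3 IL1RL1 probe sets, 2 separated the groups and 1 did not. The second had 8789 and 3825 with rhLH, against 3182 and 1578 with PBS, a log2 difference of 1.37. The third had 5994 and 2589 with rhLH, against 1030.4 and 1581 with PBS, a difference of 1.61. The dimmest overlapped, with 211 and 64.01 with rhLH, against 262 and 21.2 with PBS, a difference of 0.41. The 3 brightest were highest on rhLH replicate 3, and on PBS replicate 2 the brightest gave 7237 where the next brightest pair gave 1578 and 1581. IL33, named after its values were seen, had 400.3 and 82.4 with rhLH, against 372 and 134 with PBS, so it overlapped.

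IL1RAPL1, an interleukin-1 receptor accessory-like protein known mainly from neurons, had 288 and 335 with rhLH, against 92.0 and 169 with PBS. The log2 difference was 1.21 (SE 0.53), or 1.60 and 0.82 against the 2 PBS arrays. A second probe set, with 350 and 287 with rhLH, against 46.2 and 225 with PBS, was also higher without overlap.

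Of the type 1 and type 2 cytokine receptors, IL5RA, the interleukin-5 receptor of eosinophils, had 142 and 102 with rhLH, against 599 and 164 with PBS. It was lower without overlap by −1.28 (SE 0.71), at −2.17 and −0.40 against PBS replicates 1 and 2, and its 2 dimmer probe sets overlapped. IL13RA1, a subunit shared by interleukin-4 and interleukin-13, was nearly level at 4017 and 3935 with rhLH, against 4374 and 3969 with PBS, a difference of −0.07 (SE 0.30). Its other 2 probe sets were low on PBS replicate 1 alone, at 978 and 1152.

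IL20RB, a subunit of the interleukin-20 and interleukin-24 receptors, was singled out by the 2-fold rule and was below the filter on every array. It had 6.08 and 5.07 with rhLH, against 83.4 and 56.4 with PBS.

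The brightest probe sets of IL2 and IL10 overlapped between groups. IL2, the T cell growth factor, had 8026 and 11858 with rhLH, against 11924 and 9806 with PBS, a log2 difference of −0.15 (SE 0.37). A second IL2 probe set gave 3655 and 5125 with rhLH, against 4138 and 5669 with PBS, while the dimmest had 55.6 and 16.8 with rhLH, against 29.8 and 9.67 with PBS. Its probe sets thus do not give 1 picture of whether IL2 was expressed. IL10, which restrains macrophages and T cells, had 545 and 845 with rhLH, against 591 and 874 with PBS, a difference of −0.08 (SE 0.41). Its other probe set, dimmer, was lower without overlap, at 30.6 and 5.75 with rhLH, against 231 and 93.3 with PBS, a difference of −2.37.

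In the colony-stimulating factor group, CSF1R, the receptor on which macrophages depend, had 816 and 513 with rhLH, against 584 and 782 with PBS, and a log2 difference of −0.06 (SE 0.41). Its ligand CSF1 was below the filter, at 69.9 and 26.5 with rhLH, against 26.4 and 31.7 with PBS, and so was CSF2, the granulocyte and macrophage factor, at 22.4 and 9.51 with rhLH, against 132 and 24.0 with PBS. IL34, the second ligand of CSF1R, had 452 and 193 with rhLH, against 15.7 and 224 with PBS. The groups overlapped, and the difference of 1.84 (SE 1.05) was 3.30 and 0.38 against PBS replicates 1 and 2.

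The 2 receptor antagonists and the enzyme overlapped between groups. IL1RN, which blocks the interleukin-1 receptor, had 757 and 339 with rhLH, against 226 and 541 with PBS, and its log2 difference was 1.11 and −0.09 against PBS replicates 1 and 2. IL36RN was below the filter, at 48.0 and 42.1 with rhLH, against 39.2 and 77.1 with PBS. IL4I1, an amino acid oxidase of antigen-presenting cells, had 120.3 and 70.5 with rhLH, against 61.2 and 195 with PBS. These 3 are all the members of their classes.

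Of the 126 members, 60 were above a signal of 90.7 on all 4 arrays and 22 on none. The 40 that failed the filter were 27 ligands, 12 receptors and IL36RN, with signals of 2.43 to 265, and of these 10 were lower and 4 higher without overlap (25% and 10%, against 22.4% and 10.9% of all genes below the filter). Named after their values were seen, IL4, IL7, IL12A and IL26 were among the dim ligands, and IL18RAP and IL2RA among the dim receptors. Low signals say only that these probe sets were not well above background in this tissue.

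**Figure D5:**
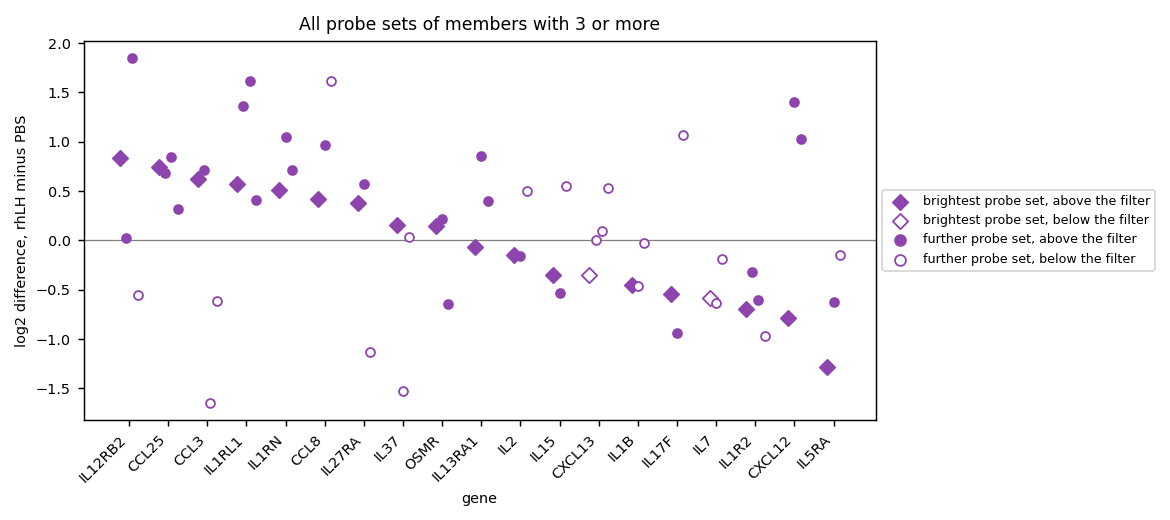
Log2 differences, rhLH minus PBS, of every probe set of the 19 members with at least 3 probe sets, with the probe set that represents the gene marked. CCL25 and IL1R2 have all 4 probe sets on 1 side of 0, while those of CXCL12 lie on both sides.

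More than 1 probe set was present for 48 members. In 25 of them all probe sets gave the same sign, and in 23 the signs were mixed. Members with mixed signs include CCL18, CCL21, CXCL12, IL11RA and OSMR, and members with a single sign include CCL25, IL1R2 and IL1RAPL1.

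Other listed genes of these pathways also gave no call, but their median was above 0, where that of all members was −0.14. Of 50 listed signalling partners, decoy receptors and regulators, 35 were measured and 29 were bright enough to be tested; 0 passed limma's adjusted threshold, 6 were lower and 7 higher without overlap (17.1% and 20.0%, against 17.5% and 15.1% of all genes), and their median log2 difference was 0.15. The following were named after their values were seen. CISH, an inhibitor of STAT5 signalling that is itself a STAT5 target, had 2019 and 1708 with rhLH, against 731 and 924 with PBS, a difference of 1.16. EBI3, the shared subunit of interleukin-27 and interleukin-35, had 266 and 361 with rhLH, against 92.1 and 168 with PBS. On the lower side were JAK2, with 520 and 640 with rhLH, against 741 and 1494 with PBS, and NFKBIA, the inhibitor of NF-kappa-B, with 113 and 216 with rhLH, against 276 and 319 with PBS.

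Leukocyte markers went both ways. Without overlap, CD86 and MARCO were higher among 14 macrophage markers, GZMB and KLRD1 among 7 T and NK cell markers, CD79A among 5 B and plasma cell markers and CORO1A among 4 pan-leukocyte markers, while S100A8 and S100A12 were lower among 6 neutrophil markers. The higher ones were 14.3% of the macrophage, 28.6% of the T and NK cell, 20% of the B and plasma cell and 25% of the pan-leukocyte markers. Of all genes, 15.1% were higher. The lower ones were 33.3% of the neutrophil markers, against 17.5% of all genes. In lists this short 1 gene shifts the share widely, and MARCO, CD79A and S100A12 were below the filter. Above the filter, 0 of 3 B and plasma cell markers were higher and 1 of 4 neutrophil markers was lower without overlap. The other markers of these lists overlapped. Summed signals of 14 measured macrophage markers of 16 listed were 30555 and 22293 with rhLH, against 13437 and 43124 with PBS, with ITGAM and MARCO below the filter, and LYZ alone gave 28435 of the sum on PBS replicate 2. Those of 7 measured T and NK cell markers of 14 listed were 28781 and 21523 with rhLH, against 8423 and 29203 with PBS, with CD8B and NKG7 below the filter. GNLY and GZMB gave 8054 and 15764 of the sum on rhLH replicate 3, and 14791 and 10891 of that on PBS replicate 2. In both sums the PBS arrays lay on either side of the rhLH arrays. The part of leukocyte content in the cytokine and receptor values was not tested.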

How the data were processed

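The deposited values are Affymetrix signal intensities computed with MAS5, per the submitters' processing notes, with a trimmed mean of 500.0 on each array. Intensities were used as deposited, with no further normalization, as log2(signal + 16). The 99 control probe sets were left out, and probe sets above the 40th percentile of the mean log2 value (signal 90.7) were tested. The test was limma 3.58.1 in R 4.3.3 (lmFit, then eBayes with a trend), two-sided, with Benjamini-Hochberg adjustment over 31659 probe sets. SDs and SEs rest on n = 2 arrays a group, and the number of arrays limits the precision. The labels do not tie arrays to animals, so p-values measure the spread between these arrays.

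Named one by one were the 12 members with the smallest limma p, the 6 brightest ligands, the 6 brightest receptors and a panel of 21 genes, of which 20 were measured and IL1R1 was not analysed here, which makes 38 genes in all. Other genes are marked as chosen after their values were seen, or were given as a whole class, by a stated rule or as listed markers. The members and lists were chosen with earlier results of these data known. The arrays were designed for another macaque species, and the effect of this on the signals was not tested. No sequences were used here. Alternatives were other normalizations, pseudocounts, filters and variance models, the mean over probe sets, and leaving out each array.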

Additional observations from a re-analysis of the deposited data

How the results depend on the processing

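The counts and medians moved mainly with which arrays were used. Lower members without overlap numbered 15 after quantile normalization (11.9%, against 15.2% of all genes), 14 among members above the filter (16.3%, against 16.1% of genes above it), and 39 to 60 with 1 array left out. Higher members numbered 26 to 43 with 1 array left out. With only 3 arrays fewer comparisons are needed for a gap. Lower members and genes were then 31.7% and 34.5% without PBS replicate 1, 47.6% and 45.6% without PBS replicate 2, 37.3% and 29.3% without rhLH replicate 3, and 31.0% and 30.2% without rhLH replicate 4. Higher members and genes were 29.4% and 33.95%, 34.1% and 39.1%, 20.6% and 24.6%, and 31.7% and 27.9% in the same order. The receptors' median ran from −0.19 to 0.0053 with 1 array left out, the lowest being without rhLH replicate 3. Probe sets past limma's adjusted threshold numbered 0 under every alternative except leaving out PBS replicate 2, which gave 8169 (25.8%), among them 28 of 86 members (18 lower, 10 higher). In that fit PBS replicate 1 is the sole control and is assumed to vary as the rhLH arrays do. Centring each array on its median moved the median of all genes to 0.09 and gave 17 lower and 19 higher members, against 14.1% and 19.0% of all genes, and quantile normalization gave 20 higher members (15.9%, against 16.7% of all genes). The smallest adjusted p of a member was 0.00576 without PBS replicate 2, 0.135 without rhLH replicate 4 and 0.497 without PBS replicate 1.

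The following single genes above the filter changed sign. Quantile normalization gave 0.0087 for CSF1R and −0.046 for OSMR. Centring gave 0.052 for CSF1R, 0.033 for IL10 and 0.047 for IL13RA1. The mean over probe sets gave 0.55 for CXCL12, −0.24 for IL11RA, 0.40 for IL13RA1, 0.063 for IL2 and −0.095 for OSMR. With 1 array left out the ranges were −0.59 to 3.44 for CCL18, −0.0078 to 1.07 for CCL2, −1.15 to 1.84 for CCL5, −0.39 to 0.26 for CSF1R, −0.48 to 0.17 for CX3CL1, −0.11 to 0.38 for CX3CR1, −1.59 to 0.024 for CXCL12, −0.39 to 0.23 for IL10, −0.14 to 0.0025 for IL13RA1, −0.36 to 1.49 for IL1RL1, −0.43 to 0.13 for IL2, −1.30 to 0.00073 for IL6R and −0.44 to 0.55 for LIF. Below the filter, CSF1 and CCR2 also changed sign. With 1 array left out they ran from −0.083 to 0.93 and from −0.36 to 0.39. The 2 CSF1 probe sets gave 0.42 and −0.46, so their mean was negative. The cause was not tested. Pseudocounts, the other filters, the robust prior and array weights changed no sign among the genes of the 38 to which each applied. No paired analysis was possible because the groups share no replicate number.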

Other observations

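Markers of cytotoxic lymphocytes, looked at after their values were seen, differed widely in level and in order. GNLY, which makes holes in microbial membranes, had 8054 and 2041 with rhLH, against 476 and 14791 with PBS, and GZMB, a granule protease, had 15764 and 16051 with rhLH, against 4481 and 10891 with PBS. KLRD1, an NK cell receptor subunit, had 4349 and 3064 with rhLH, against 2656 and 3013 with PBS. GZMB and KLRD1 were higher with rhLH without overlap, as were 15.1% of all genes. NKG7, a granule protein, and CD8B, a co-receptor chain, were below the filter, NKG7 with 164 and 28.1 with rhLH, against 165 and 49.99 with PBS, and CD8B with 98.5 and 19.3 with rhLH, against 385 and 26.5 with PBS. CD8A had 133 and 50.7 with rhLH, against 90.8 and 118 with PBS. GNLY, NKG7, CD8B and CD8A overlapped between groups.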
